A study of Mus musculus with 14 samples.

Results

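Mafa, Nkx6-1, Nkx2-2, Neurod1, Pax6, Isl1, Foxa2, Rfx6, Glis3 and Insm1 encode transcription factors that β-cells use besides Pdx1. Each of these 10 symbols named 1 transcript cluster of the array, so 10 of the 19938 genes tested are described here, and none was left out by a filter. Their signals were read on 14 Affymetrix Mouse Gene 1.0 ST arrays of isolated pancreatic islets from untreated mice that were 11 weeks old, on a C57BL/6 and NMRI (1:1) background. The IKK2-CApdx-1 group (here IKK2-CA, 5 arrays) came from diabetic mice in which the driver allele Pdx-1-tTA made β-cells produce a constitutively active form of IKK2, the kinase that activates NF-κB. The Pdx-1+/- group (4 arrays) carried Pdx-1-tTA, which leaves Pdx-1 haploinsufficient, and the labels name no IKK2 transgene for it. The control group (5 arrays) is labelled only as control mice. IKK2-CA mice thus share the altered Pdx-1 allele with Pdx-1+/- mice, and in them active IKK2 and diabetes cannot be told apart. Whether the arrays come from separate mice is not stated in the labels, and the p-values measure only the spread between these arrays.

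Transcription factors of the mature β-cell form a network in which members bind each other's promoters and those of insulin and secretory genes. Foxa2, Rfx6, Glis3, Insm1 and Neurod1 already act while endocrine cells form, Nkx2-2, Pax6 and Isl1 are used by several islet cell types, and Nkx6-1 and Mafa are the most restricted to β-cells in the adult mouse islet. Mafa appears late, as β-cells acquire glucose-responsive insulin secretion, and Pdx1 is among its known activators.

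Promoter sequence is shown for 3 of the factors and for Pdx1, to place the readings beside the DNA that these same factors are known to bind. RefSeq (GRCm38.p6) windows of 250 bases before the transcript start were at hand for 8 of the 10 factors, in 11 windows; Mafa and Insm1 had no entry. The windows below are chr5:101664712-101664961, minus strand, for Nkx6-1, chr2:79456637-79456886, minus strand, for Neurod1, chr2:148046970-148047219, minus strand, for the outermost start of Foxa2, and chr5:147269847-147270096, plus strand, for Pdx1. Capitals mark TAAT, the core letters of homeodomain sites, CANNTG, the E-box of bHLH factors, and TGCTGA, the core of Maf sites, on either strand and with overlaps allowed.
Nkx6-1: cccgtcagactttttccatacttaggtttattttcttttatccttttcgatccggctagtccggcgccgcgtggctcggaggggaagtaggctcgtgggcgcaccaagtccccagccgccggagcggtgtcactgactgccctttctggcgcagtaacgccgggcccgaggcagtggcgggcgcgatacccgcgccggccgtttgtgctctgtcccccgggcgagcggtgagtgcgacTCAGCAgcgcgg
Neurod1: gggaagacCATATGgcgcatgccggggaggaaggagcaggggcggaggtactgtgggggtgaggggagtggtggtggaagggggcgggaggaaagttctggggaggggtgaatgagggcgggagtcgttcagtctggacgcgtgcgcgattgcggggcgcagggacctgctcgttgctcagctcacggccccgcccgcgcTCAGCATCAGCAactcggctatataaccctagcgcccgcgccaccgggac
Foxa2: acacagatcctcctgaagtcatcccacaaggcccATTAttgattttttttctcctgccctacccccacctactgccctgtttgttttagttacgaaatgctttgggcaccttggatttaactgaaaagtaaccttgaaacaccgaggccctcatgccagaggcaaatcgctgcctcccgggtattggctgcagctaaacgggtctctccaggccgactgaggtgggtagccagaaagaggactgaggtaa
Pdx1: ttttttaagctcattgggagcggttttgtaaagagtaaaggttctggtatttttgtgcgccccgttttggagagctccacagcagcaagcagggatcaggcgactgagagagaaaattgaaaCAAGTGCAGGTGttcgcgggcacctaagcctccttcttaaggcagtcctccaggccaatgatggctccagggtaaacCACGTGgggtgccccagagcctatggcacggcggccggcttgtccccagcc
The Nkx6-1 window held 1 TGCTGA, the Neurod1 window 1 CANNTG and 2 TGCTGA, the Foxa2 window 1 TAAT, and the Pdx1 window 3 CANNTG. Over the 11 windows of the factors, TAAT was in 7, CANNTG in 6 and TGCTGA in 3, where 54.9%, 66.2% and 16.1% of 32851 windows of all genes held them. A general and a strict form of the κB site of NF-κB were in none of the 11, and in 4.65% and 0.14% of all windows. A match is a run of letters and no measured site, and the absence of one says nothing of binding outside the window.

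Signals are log2 values, which can be set side by side between arrays but not between genes. Differences were tested with limma in 1 fit over all 14 arrays, with p adjusted over all genes (Benjamini-Hochberg) and a threshold of 0.05. Array medians lay between 6.45 and 6.55. For a list of genes, the level on an array is the mean of its genes' deviations from their own 14-array means. The level of the 7 measured β-cell markers, Pdx1 among them, was −1.11 to 0.12 in IKK2-CA islets, −0.44 to 0.07 in Pdx-1+/- islets and 0.20 to 0.95 in control islets. In IKK2-CA against control islets 5 of the 7 fell, where 1.56% of all genes fell. They were Pdx1 itself and Slc2a2, Ucn3, G6pc2 and Slc30a8, which are counted again among the β-cell function genes below. Ins2 read 12.31 to 12.68 on the 14 arrays, near the top of their range. Genes of other tissues set 3 arrays apart. Pdx-1+/- array 4 had an intestinal epithelium marker level of 2.50 and control array 3 one of 1.05, with Sis, a brush border disaccharidase, at 9.16 and 6.05, and IKK2-CA array 5 had an adipocyte marker level of 2.70. Myeloid markers lay between 0.04 and 1.32 in IKK2-CA islets, between −0.41 and −0.07 in Pdx-1+/- islets and between −0.53 and −0.11 in control islets. In islet RNA, fewer β-cells and less RNA of a gene per β-cell cannot be told apart.

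Mafa, the basic leucine zipper factor that activates insulin transcription in mature β-cells, was the 1 factor to pass the test, and it fell in IKK2-CA islets relative to control islets. It read 6.83, 6.65, 6.83, 6.83 and 6.09 on the IKK2-CA arrays, 6.73, 6.92, 6.87 and 6.94 on the Pdx-1+/- arrays, and 7.50, 7.25, 8.16, 8.77 and 7.64 on the control arrays. Every IKK2-CA and every Pdx-1+/- array lay below every control array, and the 2 mutant groups overlapped each other. Control islets were also the most scattered, with means of 6.65 ± 0.32 in IKK2-CA (SD, n = 5), 6.87 ± 0.10 in Pdx-1+/- (SD, n = 4) and 7.86 ± 0.61 in control islets (SD, n = 5). In IKK2-CA islets Mafa fell by 1.22 log2 units against control islets (SE 0.23, 95% interval −1.72 to −0.71, limma adjusted p = 0.0172), a signal 2.32-fold lower. Leaving out IKK2-CA array 5 together with Pdx-1+/- array 4 gave −1.08 (limma adjusted p = 0.0315), and leaving out control array 3 as well gave −1.003 (limma adjusted p = 0.0910). With the level of pan-endocrine markers as a covariate it was −1.03 (limma adjusted p = 0.0761). These 3 settings were chosen after seeing the data. The adjusted p was between 0.00372 and 0.0615 over 24 other settings of the fit, and the call was lost in 1 of them, without control array 3 (log2 difference −1.14, limma adjusted p = 0.0615).

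In Pdx-1+/- islets the Mafa difference from control islets was −0.996 (SE 0.25, interval −1.53 to −0.46) and did not pass the test over all genes (limma adjusted p = 0.296). The direct comparison of IKK2-CA with Pdx-1+/- islets gave −0.22, with an interval of −0.75 to 0.31 (limma adjusted p = 0.948). That interval holds 0 as well as a further loss of more than 0.5 log2 units, so the data do not show whether active IKK2 added to the Mafa difference. Its width also depends on the scattered control arrays, since the fit pools the spread of all 3 groups. With only these 2 groups the SE was 0.15 in place of 0.25 (limma adjusted p = 0.998). Both differences from control islets use the same 5 control arrays.

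Nkx6-1, a homeodomain repressor that keeps β-cells from other endocrine fates, had the next largest difference in IKK2-CA islets. Its signals were 7.72, 7.94, 7.45, 8.67 and 7.40 in IKK2-CA, 8.21, 8.44, 8.23 and 7.73 in Pdx-1+/- and 8.47, 8.15, 9.07, 8.90 and 8.96 in control islets. All groups overlapped: IKK2-CA array 4 lay above 2 control arrays, and the other 4 IKK2-CA arrays lay below the whole control range. The IKK2-CA minus control difference was −0.88 (SE 0.24, interval −1.38 to −0.37), which missed the threshold (limma adjusted p = 0.0704). Against control islets Pdx-1+/- islets differed by −0.56 (interval −1.09 to −0.02, limma adjusted p = 0.999), and IKK2-CA against Pdx-1+/- islets by −0.32 (interval −0.85 to 0.22).

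**Figure D1:**
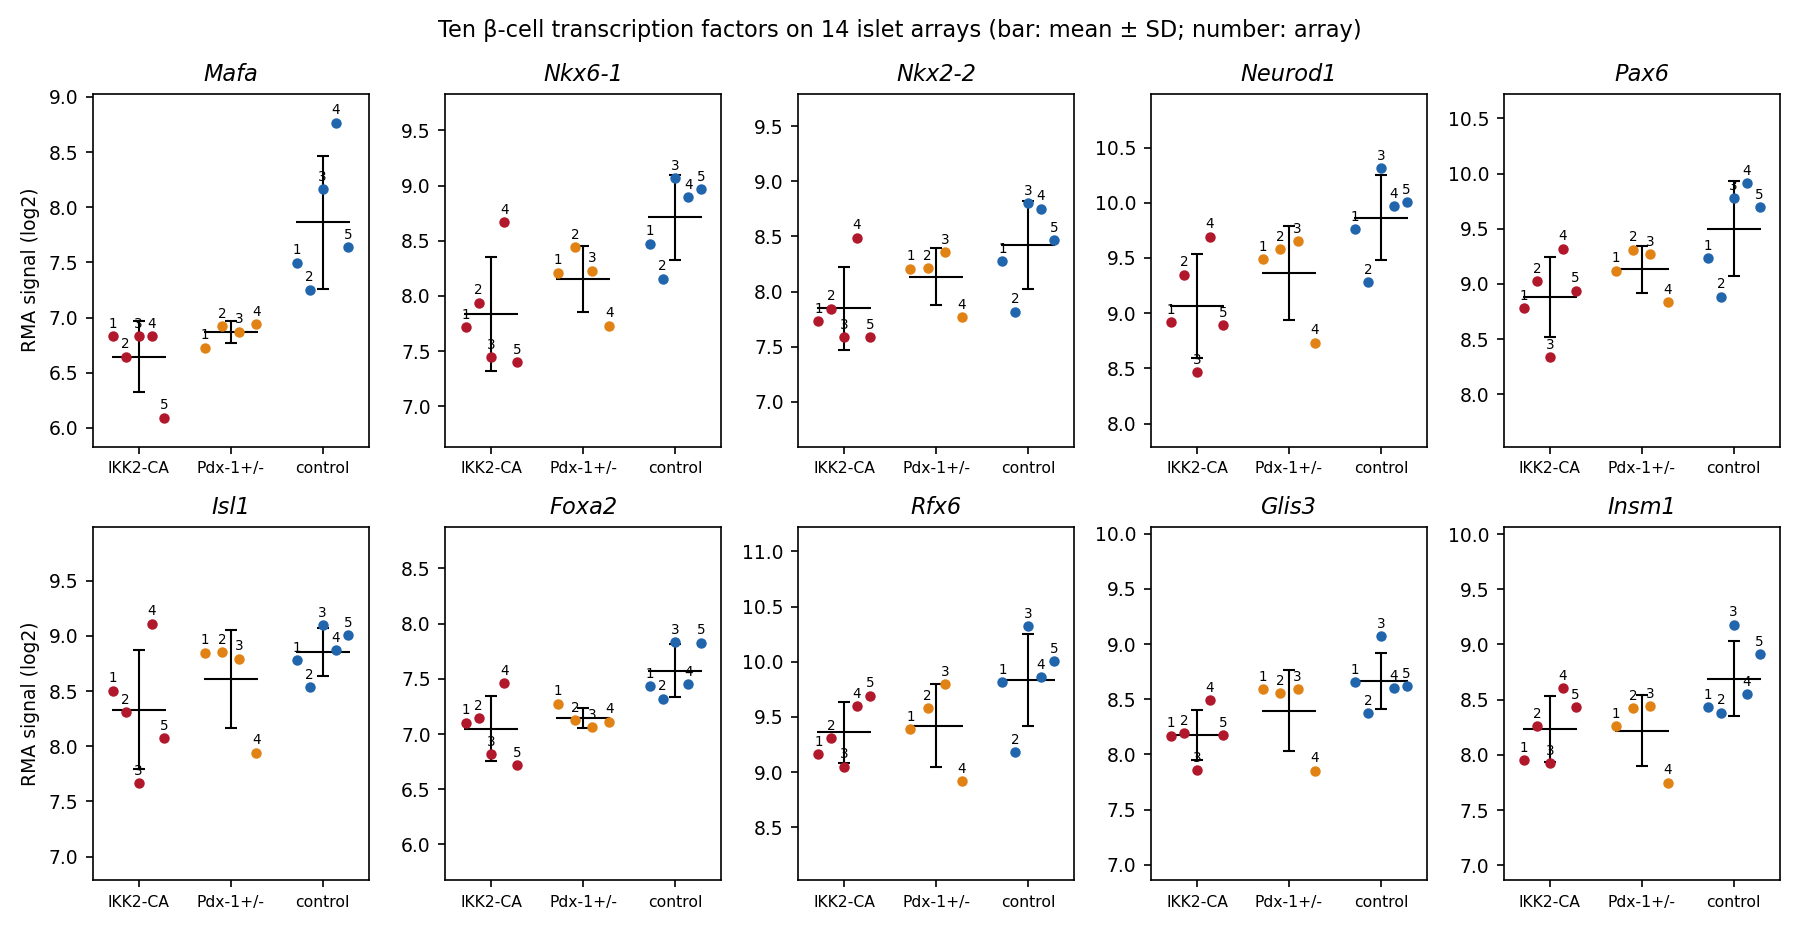
Log2 signal (vertical axis) of each of the 10 factors on every array of the IKK2-CA, Pdx-1+/- and control groups (left to right), with points numbered by array and bars for the group mean ± SD. Mafa is the panel in which all IKK2-CA and Pdx-1+/- points lie under the lowest control point of 7.25; in most other panels control array 2 falls among the mutant points.

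Of the homeodomain factors shared by several islet cell types, none passed the test in any comparison. Nkx2-2, which represses non-β hormone genes, averaged 7.85 ± 0.37 in IKK2-CA (SD, n = 5), 8.14 ± 0.25 in Pdx-1+/- (SD, n = 4) and 8.42 ± 0.40 in control islets (SD, n = 5). Its IKK2-CA minus control difference was −0.58 (interval −1.01 to −0.14, limma adjusted p = 0.165). IKK2-CA array 4, at 8.49, stood apart from the other 4 IKK2-CA arrays at 7.59 to 7.85.

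Pax6, a paired-box factor of all islet endocrine cells that supports insulin and glucagon transcription, averaged 8.88 ± 0.36 in IKK2-CA (SD, n = 5), 9.13 ± 0.22 in Pdx-1+/- (SD, n = 4) and 9.50 ± 0.43 in control islets (SD, n = 5). The IKK2-CA minus control difference was −0.62 (interval −1.05 to −0.19, limma adjusted p = 0.132). Control arrays 1 and 2, at 9.24 and 8.88, lay within the IKK2-CA range of 8.34 to 9.32, and the other 3 lay above it.

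Isl1, a LIM-homeodomain factor that endocrine cells need to mature, read 8.50, 8.31, 7.66, 9.11 and 8.07 in IKK2-CA, 8.85, 8.85, 8.79 and 7.94 in Pdx-1+/- and 8.78, 8.53, 9.10, 8.87 and 9.005 in control islets. The highest reading of all belonged to an IKK2-CA array, number 4, and 3 of the 4 Pdx-1+/- arrays lay inside the control range. Pdx-1+/- array 4, the one with intestinal genes, was low. The IKK2-CA minus control difference of −0.53 had an interval of −1.03 to −0.02 (limma adjusted p = 0.295), and the Pdx-1+/- minus control difference of −0.25 one of −0.79 to 0.29.

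Neurod1, a bHLH activator of the insulin gene, read 8.92, 9.35, 8.47, 9.69 and 8.89 in IKK2-CA, 9.49, 9.58, 9.65 and 8.73 in Pdx-1+/- and 9.76, 9.28, 10.31, 9.97 and 10.01 in control islets. Control array 2 was the 1 control array inside the range of either mutant group. The difference from control islets was −0.80 in IKK2-CA islets (SE 0.24, interval −1.32 to −0.29, limma adjusted p = 0.103) and −0.50 in Pdx-1+/- islets (interval −1.05 to 0.05).

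Insm1, a zinc-finger factor that acts with Neurod1 and Foxa2 in mature β-cells, read 7.95, 8.26, 7.93, 8.61 and 8.43 in IKK2-CA, 8.26, 8.42, 8.44 and 7.75 in Pdx-1+/- and 8.43, 8.38, 9.18, 8.55 and 8.91 in control islets. The mutant groups overlapped each other over most of their range, and both reached the lower control arrays. Its differences from control islets were −0.46 in IKK2-CA islets (interval −0.85 to −0.06, limma adjusted p = 0.230) and −0.47 in Pdx-1+/- islets (interval −0.89 to −0.06). Between IKK2-CA and Pdx-1+/- islets it was 0.02, with an interval of −0.40 to 0.43, and its sign depended on the settings.

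Foxa2, a forkhead factor that opens chromatin for endocrine genes and lies upstream of Pdx1, read 7.10, 7.14, 6.82, 7.46 and 6.72 in IKK2-CA, 7.27, 7.13, 7.06 and 7.11 in Pdx-1+/- and 7.44, 7.32, 7.83, 7.45 and 7.83 in control islets. Its 4 Pdx-1+/- arrays lay within a narrow band below all control arrays, and in IKK2-CA islets only array 4 reached the control range. The IKK2-CA minus control difference of −0.52 (SE 0.14, interval −0.82 to −0.23) missed the threshold (limma adjusted p = 0.0640). The Pdx-1+/- minus control difference was −0.43 (interval −0.74 to −0.12, limma adjusted p = 0.773).

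Rfx6, a winged-helix factor of endocrine progenitors that also maintains β-cell calcium channel genes, averaged 9.36 ± 0.28 in IKK2-CA (SD, n = 5), 9.42 ± 0.37 in Pdx-1+/- (SD, n = 4) and 9.84 ± 0.42 in control islets (SD, n = 5). Unlike the other 9 factors, it was highest among IKK2-CA arrays on array 5, at 9.69. Glis3, a Krüppel-like zinc-finger factor that binds the insulin promoter, averaged 8.18 ± 0.22 in IKK2-CA (SD, n = 5), 8.40 ± 0.36 in Pdx-1+/- (SD, n = 4) and 8.66 ± 0.25 in control islets (SD, n = 5). On 3 Pdx-1+/- arrays Glis3 read 8.55 to 8.59, inside the control range of 8.37 to 9.07, and on the fourth, array 4, 7.85. Neither factor passed the test, with IKK2-CA minus control differences of −0.48 (interval −0.91 to −0.04) for Rfx6 and −0.49 (interval −0.83 to −0.14) for Glis3.

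Read together, 1 of the 10 factors passed the test as lower in IKK2-CA than in control islets and none as higher, where 1.56% of all 19938 genes passed as lower and 0.682% as higher. All 10 differences lay below 0, with a median of −0.55, against 53.6% of all genes and a median of −0.01. All 10 also had an unadjusted p under 0.05, which 9.47% of genes had in that direction, though the factors go up and down together across arrays and do not count as 10 separate observations. In Mafa alone no IKK2-CA array reached a control array, against 2.34% of all genes. Of the 9 measured myeloid markers, 3 rose in IKK2-CA against control islets, Itgax, Cd74 and Mmp12. These and Ptprc were higher without overlap between the groups, against 1.86% of all genes. Itgax, an integrin of dendritic cells and macrophages, read 7.29 to 9.36 in IKK2-CA and 5.44 to 6.12 in control islets. The macrophage receptor gene Csf1r differed by −0.01, and Csf1r, Cd68 and Adgre1 differed by −0.21, −0.05 and −0.19 in IKK2-CA minus Pdx-1+/-. Of the 6 T and NK cell markers, 1 rose, Klrb1b, and all 6 differences from control islets were above 0, with a median of 0.81. The T and NK level was −0.20 to 1.53 in IKK2-CA, −0.61 to −0.18 in Pdx-1+/- and −0.42 to −0.25 in control islets, highest on IKK2-CA arrays 3 and 5 (1.21 and 1.53), the IKK2-CA arrays on which the factors were lowest. The myeloid level lined up less well: it was highest on IKK2-CA array 5 (1.32), but on array 3 (0.29) it lay below array 2 (0.44). The part of these immune markers in the factors' differences was not tested.

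None of the 10 factors passed in Pdx-1+/- against control islets, where 19 genes did (0.0953% of all genes, each of them lower). The unadjusted p was under 0.05 for 4 factors, Mafa, Nkx6-1, Foxa2 and Insm1, and for 3.49% of all genes in that direction. The 10 differences were below 0, as were 51.8% of all genes, with a median of −0.42 against −0.0049. For Mafa and Foxa2 all Pdx-1+/- arrays lay below all control arrays, as they did for 1.4% of genes.

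Between IKK2-CA and Pdx-1+/- islets none of the 10 factors passed, and 15 genes did (0.0752% of all genes, each of them higher); no factor had an unadjusted p under 0.05, which 7.02% of genes had in either direction. In 9 of the 10 the difference was below 0, as in 55% of genes, with a median of −0.24 against −0.01 for all genes. No factor had its groups apart, against 0.712% of genes lower without overlap. The widest interval, for Neurod1, was −0.85 to 0.25, which holds 0 and also a difference as large as that between IKK2-CA and control islets (−0.80).

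**Figure D2:**
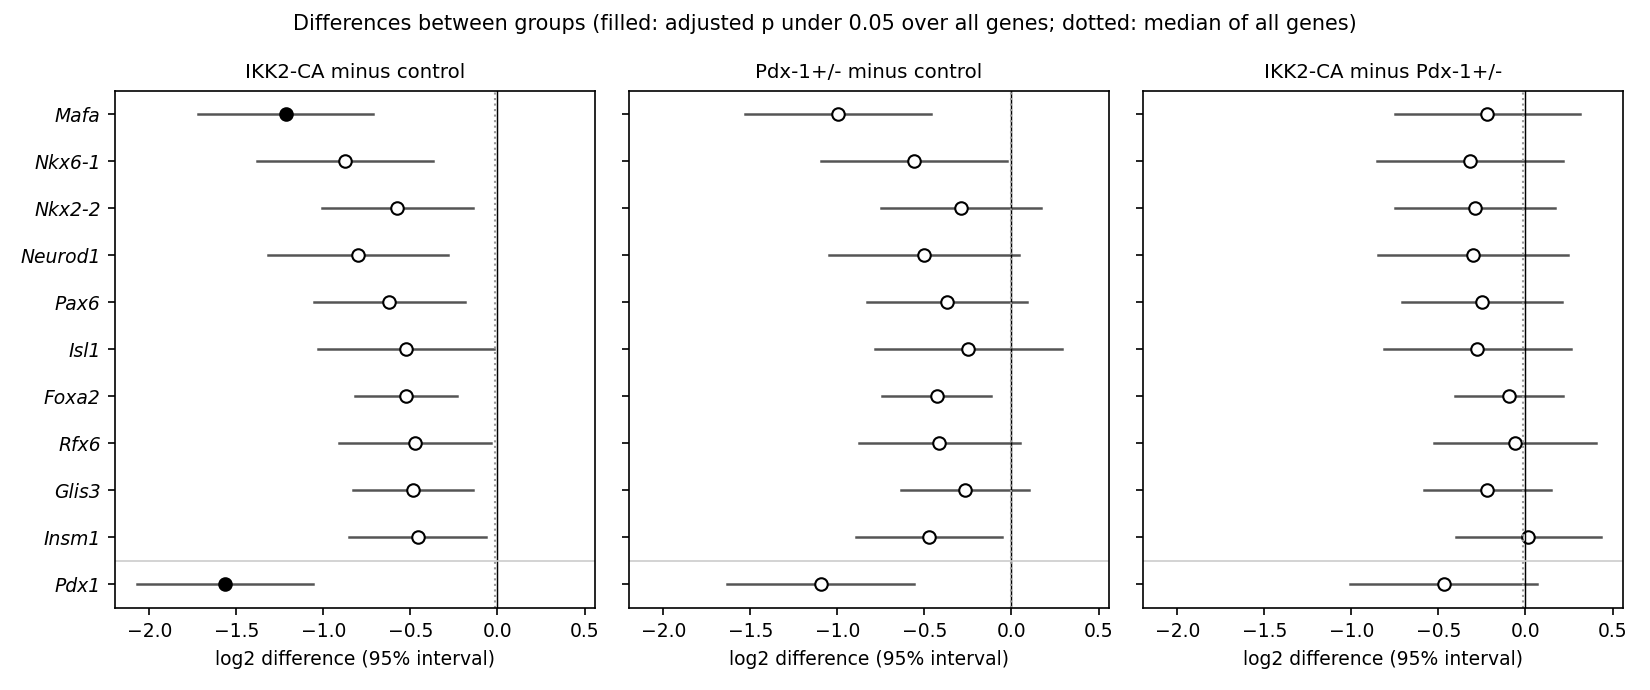
Log2 difference (horizontal axis) of each factor, with Pdx1 for reference, in the 3 comparisons, with bars for the 95% interval, filled points for an adjusted p under 0.05 and a dotted line for the median of all genes. Mafa at −1.22 is the filled factor in IKK2-CA minus control, and the intervals of IKK2-CA minus Pdx-1+/- all cross 0.

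Pdx1 itself read 6.68, 6.86, 6.39, 7.44 and 5.97 in IKK2-CA, 7.32, 7.10, 7.27 and 6.85 in Pdx-1+/- and 7.98, 7.67, 8.62, 8.46 and 8.42 in control islets. Both mutant groups lay wholly below the control group. Its differences were −1.56 in IKK2-CA minus control (limma adjusted p = 0.00480), −1.09 in Pdx-1+/- minus control (limma adjusted p = 0.210) and −0.47 in IKK2-CA minus Pdx-1+/- (interval −1.01 to 0.07). Where its probes lie relative to the altered allele was not stated in the sources used here, and this reading does not check the labels. The same holds for Ikbkb, the gene of IKK2, at 0.24 in IKK2-CA minus control (interval 0.01 to 0.47, limma adjusted p = 0.283).

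The factors varied together within groups. Control array 2 was the lowest control array for all 10 factors and control array 3 the highest for 8, the exceptions being Mafa and Pax6, highest on array 4. Among IKK2-CA arrays, array 4 was the highest for 9 factors and arrays 3 and 5 the lowest for 6 and 4. Pdx-1+/- array 4 was the lowest of its group for 8 factors and the highest for Mafa, at 6.94. The mean deviation of the 10 factors per array ran from −0.64 to 0.19 in IKK2-CA, from −0.48 to 0.07 in Pdx-1+/- and from −0.12 to 0.73 in control islets, so the groups overlapped.

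Markers of all endocrine cells varied partly in step with the factors. The 7 pan-endocrine markers, which include the granule genes Chga and Syp, had levels of −0.35 to 0.11 in IKK2-CA, −0.45 to 0.15 in Pdx-1+/- and −0.18 to 0.41 in control islets. In both sets Pdx-1+/- array 4 and control array 2 were the lowest of their groups. IKK2-CA array 4 and control arrays 3 and 4 were the highest of theirs in both. On other IKK2-CA arrays the sets parted in part: array 3, lowest for the factors at −0.64, had a pan-endocrine level of −0.15, and array 5, next lowest at −0.43, one of 0.06. IKK2-CA array 1, at −0.35 for the factors, had the lowest pan-endocrine level, also −0.35. None of the 7 passed the test against control islets in either mutant. In IKK2-CA minus control, however, 6 of the 7 differences lay below 0, with a median of −0.36. Scg2, Pcsk1n and Syp (3 of the 7) were lower at an unadjusted limma p under 0.05, as were 9.47% of all genes. All 5 α-cell markers differed from control islets by values below 0 in both mutants, as did 53.6% of all genes in IKK2-CA and 51.8% in Pdx-1+/- islets. Their median in IKK2-CA minus control was −0.21, against −0.01 for all genes. There 4 of the 5, Irx1, Irx2, Ttr and Slc7a2, were lower at an unadjusted limma p under 0.05, against 9.47% of all genes. Irx2 was lower without overlap, as were 2.34% of all genes. Among these markers 1, Slc7a2, fell in IKK2-CA islets, by 1.01, where 1.56% of all genes fell. With the pan-endocrine level as a covariate, a setting chosen after seeing the data, the median difference of the factors in IKK2-CA minus control was −0.30 in place of −0.55, and no factor passed. The markers Chga, Chgb and Scg2 are also on the list of β-cell function genes described below. The covariate thus shares genes with that list, and why the differences shrank was not tested. Acinar markers ranged from −0.38 to 0.17 in IKK2-CA, from −0.13 to 0.32 in Pdx-1+/- and from −0.25 to 0.11 in control islets.

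**Figure D3:**
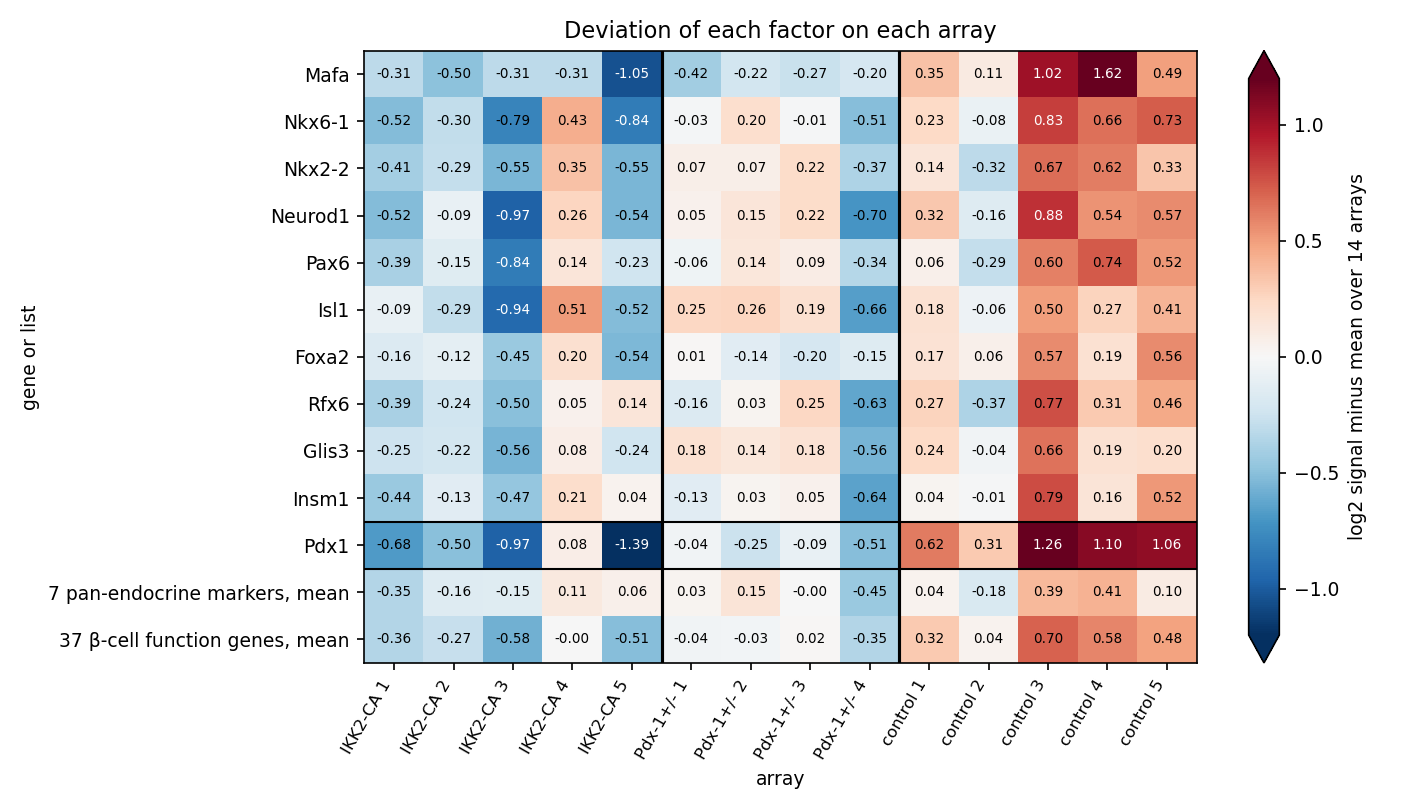
Deviation of each factor (rows, with Pdx1 and marker lists) from its own mean over 14 arrays, in log2 units by colour, on each array (columns, IKK2-CA, Pdx-1+/- and control from left to right). Control array 2 is the lowest control column in every factor row, and Pdx-1+/- array 4 is low in most factor rows but not in the Mafa row.

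Set against the other 9 factors on the same array, Mafa was lower in the mutants than in control islets on average. This follows from Mafa having the largest differences from control islets of the 10 factors, and is no separate evidence. The deviation of Mafa minus the mean deviation of the others ran from −0.68 to 0.36 in IKK2-CA (mean −0.23), from −0.44 to 0.31 in Pdx-1+/- (mean −0.21) and from 0.02 to 1.22 in control islets (mean 0.39), with overlap. The control mean rests on array 4, at 1.22, and is 0.19 over the other 4 control arrays, which lie between 0.02 and 0.32. For Pdx1 the same measure ran from −1.02 to −0.17 in IKK2-CA, from −0.35 to −0.001 in Pdx-1+/- and from 0.44 to 0.69 in control islets. The Pdx1 ranges of both mutants lay apart from that of control islets, and no test was made of either measure.

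The 4 genes whose array profiles were nearest to that of Mafa were Vstm2l, Galnt14, Fhdc1 and Carmil3. Likeness was the root mean square distance between profiles centred on their means over 14 arrays, and was 0.22, 0.27, 0.29 and 0.29 log2 units. Genes picked this way share the group differences of Mafa by selection, so the values that follow describe them and are no separate evidence. Against control islets Vstm2l, the nearest, differed by −1.01 in IKK2-CA and −0.79 in Pdx-1+/- islets, and Carmil3 by −1.14 and −0.97. Galnt14, a glycosyltransferase gene, differed by −1.32 and −1.03, and Fhdc1 by −1.20 and −1.07.

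Of 53 other islet transcription factors listed, 47 were measured, and in IKK2-CA against control islets 3 fell (6.38%, where 1.56% of all genes fell) and none rose, with a median of −0.12: Pdx1, Tshz1, a zinc-finger factor, and Vdr, the vitamin D receptor. Tshz1 fell by 0.72 (limma adjusted p = 0.0111), with readings of 7.71 to 8.40 in IKK2-CA and 8.61 to 8.99 in control islets, which did not overlap. Vdr fell by 0.70 (limma adjusted p = 0.0402), with readings of 8.73 to 9.12 in IKK2-CA and 9.04 to 10.18 in control islets. In Pdx-1+/- against control islets none of the 47 passed, the largest differences being those of Pdx1 (−1.09) and Ptf1a (0.54, SE 0.41), an acinar factor. Nor did any pass between IKK2-CA and Pdx-1+/- islets, where Mlxipl, the glucose-responsive factor ChREBP, differed by −0.62 (interval −1.19 to −0.06). Leaving out 1 array changed the count of 3 to 6 without control array 2, 7 without IKK2-CA array 4 and 5 without Pdx-1+/- array 4, and to 2 without any one of the other 11 arrays.

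Of 41 listed β-cell function genes, several of them textbook targets of these factors, 37 were measured. In IKK2-CA against control islets 16 fell (43.2%, where 1.56% of all genes fell) and none rose, with a median of −0.67. The list was chosen with earlier results known, so its direction is no independent evidence. The log2 differences were −2.30 for Gad1, which makes GABA, −2.07 for Ucn3, a maturity marker, and −2.04 for Sytl4, a granule docking gene. They were −1.96 for Npas4, an activity-dependent factor, −1.92 for Slc2a2, which encodes a glucose transporter, and −1.60 for Ffar1, a fatty acid receptor. Without control array 3 the count was 8, and with the pan-endocrine covariate 7.

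In Pdx-1+/- against control islets 4 of the 37 fell, where 0.0953% of all genes did, with a median of −0.43: Gad1 by 2.03 (limma adjusted p = 0.000791), Sytl4 by 1.66 (limma adjusted p = 0.00363), Cox6a2, a subunit of the respiratory chain, by 1.50 (limma adjusted p = 0.0270) and Nnat, which aids insulin processing, by 0.89 (limma adjusted p = 0.0485). Gad1 read 6.14 to 6.96 in IKK2-CA, 6.64 to 7.17 in Pdx-1+/- and 8.34 to 9.32 in control islets, so both mutants lay well below control islets. The count of 4 was 1 with the replicate number as a block, and 2 when any of Pdx-1+/- arrays 1 to 4, control array 3 or IKK2-CA arrays 2 and 3 was left out. None of the 37 passed between IKK2-CA and Pdx-1+/- islets (median −0.22), where Npas4 differed by −1.06 (interval −1.88 to −0.25) and Ucn3 by −0.84.

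Another list of 22 genes (here other-fate genes) joined genes that these factors hold low, such as Ldha and Rest, with markers of other endocrine fates. Its median is over both kinds. Of the 22, 20 were measured, and none passed the test as higher in any comparison. In IKK2-CA against control islets 2 fell (10%, where 1.56% of all genes fell), with a list median of −0.11 against −0.01 for all genes. They were Rbp4, a retinol carrier gene, by 0.76 (limma adjusted p = 0.0384) and Sst, the δ-cell hormone, by 0.67 (limma adjusted p = 0.0358). Neither call was firm, since the count was 0 when control array 1, 3, 4 or 5, IKK2-CA array 1, 2 or 3 or Pdx-1+/- array 3 was left out, and 1 without IKK2-CA array 5 or Pdx-1+/- array 1 or 2. The unadjusted limma p in IKK2-CA minus control was under 0.05 for 9 of the 20, against 15.7% of all genes in either direction. Of these 9, 6 were lower (Sst, Ttr, Arg1, Rbp4, Irx1 and Irx2), and Ghrl, Ldha and Rest were higher. In the other comparisons none passed, with Rbp4 at −0.74 in Pdx-1+/- minus control and Aldh1a3, a marker of dedifferentiating β-cells, at −0.43 in IKK2-CA minus Pdx-1+/- (interval −0.85 to −0.01). Against control islets Aldh1a3 differed by −0.05 in IKK2-CA and by 0.38 in Pdx-1+/- islets, and its highest reading was 7.40 on Pdx-1+/- array 2.

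**Figure D4:**
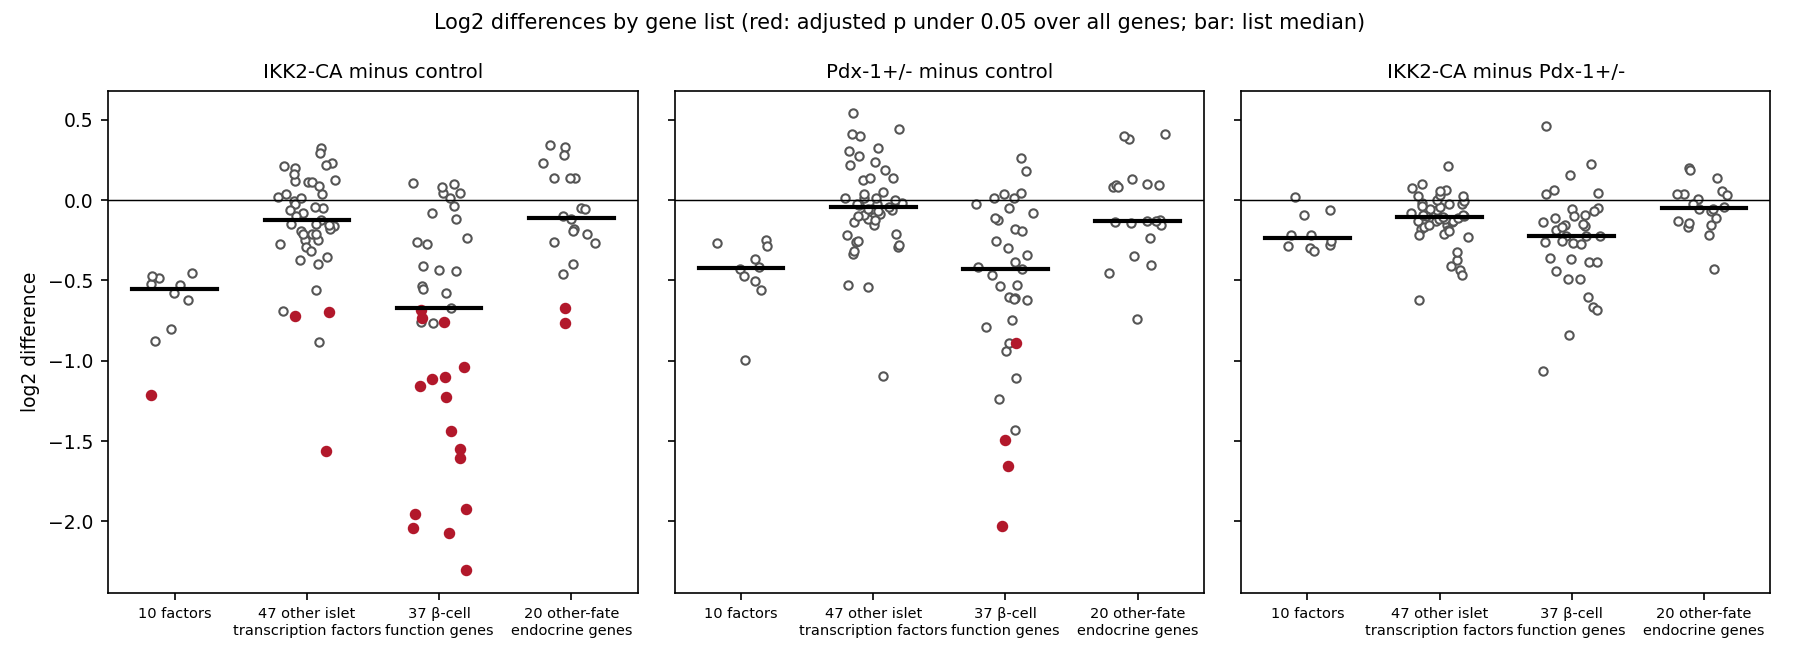
Log2 differences (vertical axis) of single genes in 4 lists, the 10 factors, other islet transcription factors, β-cell function genes and other-fate genes, in the 3 comparisons, with red for an adjusted p under 0.05 and a bar for the list median. Other-fate genes are those that the factors hold low or that mark other endocrine fates. In IKK2-CA minus control the medians are −0.55, −0.12, −0.67 and −0.11, and the deepest red point is Gad1 at −2.30.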

How the data were processed

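Islet RNA of 14 arrays was studied. Per the labels, the authors labelled total RNA with the Whole Transcript Sense Target method, and per the submitters' processing notes the deposited log2 values were made in Affymetrix Expression Console (version not given in the sources used), by robust multichip averaging (RMA) per the series text; the log base is read from the values. Clusters with 1 gene symbol in the array's annotation (21789 of 35556) were kept, those with several (1621) or not listed (12146) were not used here, and for 999 genes with several clusters the one with the highest mean was kept, leaving 19938 genes with no filter on signal. Genes were tested with limma 3.58.1 (R 4.3.3), as 3 group means fitted with lmFit and eBayes, with 11 residual and 3.46 prior degrees of freedom; it was tested on simulated data. The number of arrays limits the precision.

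The 10 factors and all lists were chosen with earlier results of these data known. Named genes are the factors, Pdx1, Ikbkb, up to 6 genes of each list that passed or else the 2 with the largest differences, the 4 genes nearest to a factor that passed, and up to 2 markers of a cell type. Some listed genes were not analysed here. The 24 other settings were the omission of each array in turn, a replicate block, array weights, an acinar covariate, quantile normalization, median centring, a robust eBayes trend, a fit of 2 groups, every cluster, the mean of clusters, and omission of the dimmest 30% of genes. Another 3 were chosen after seeing the data. Same-number arrays of different groups gave correlations of −0.39 to 0.36 after removing group means, with 2 of 13 pairs over 0.1. The main fit therefore did not treat the numbers as pairs, though such correlations cannot show that no pairing exists.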

Additional observations from a re-analysis of the deposited data

Results flagged for a closer look

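Dixon's test at the 5% level was applied to 16 genes and list levels in 3 groups, 48 in all, of which chance alone would mark about 1 in 20. It marked 5 single arrays as far from the others of their group. Mafa on IKK2-CA array 5, the array with adipocyte genes, read 6.09, with the other 4 at 6.65 to 6.83. Nkx2-2 on IKK2-CA array 4 read 8.49, with the others at 7.59 to 7.85. On Pdx-1+/- array 4, the array with intestinal genes, Isl1 read 7.94 (others 8.79 to 8.85), Glis3 read 7.85 (others 8.55 to 8.59), and the mean deviation of the 37 β-cell function genes was −0.354 (others −0.04 to 0.017). No cause of these readings was tested.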

How the results depend on the processing

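The count of factors past the threshold in IKK2-CA minus control, 1 as reported (Mafa), was 9 with array weights (every factor but Isl1), 2 with the acinar covariate (Mafa and Foxa2), and 0 to 5 when single arrays were left out: 5 without control array 2, 5 without IKK2-CA array 4 and 0 without control array 3. It was also 0 without control array 3, Pdx-1+/- array 4 and IKK2-CA array 5 together, and 0 with the pan-endocrine covariate, both added after seeing the data. Calls over all genes moved too: 1431 with array weights, 851 with the acinar covariate, 629, 980 and 120 without control array 2, IKK2-CA array 4 and control array 3, and 186 without the 3 arrays together and 151 with the pan-endocrine covariate, against 448 as reported. All 10 differences stayed below 0 in all 27 settings, with medians of −0.73 to −0.30. In the other 2 comparisons no factor passed in any setting. The replicate block gave 1, 0 and 0 factors, and 197, 9 and 9 genes of all genes in place of 448, 19 and 15. Over all settings those 3 counts ranged from 120 to 1431, from 9 to 73 and from 1 to 66. Signs turned for differences near 0. In Pdx-1+/- minus control, without the 3 arrays above, Isl1 was 0.0342 and Glis3 0.0164. In IKK2-CA minus Pdx-1+/-, Rfx6 ranged from −0.227 to 0.0655 when 1 array was left out, and Insm1, 0.02 as reported, from −0.14 to 0.0934. Insm1 was −0.00762 with quantile normalization, −0.11 with array weights, −0.0361 with the replicate block, −0.0255 with the acinar covariate and −0.19 without both IKK2-CA array 5 and Pdx-1+/- array 4, with or without control array 3. In IKK2-CA minus control the lists gave 1 to 7 other islet factors (3 as reported; 7 with array weights, 1 with the block), 7 to 23 β-cell function genes (16) and 0 to 5 other-fate genes (2; 0 with only the 2 groups, every cluster or the block). In Pdx-1+/- minus control they gave 0 to 1 (0), 1 to 7 (4; 7 with array weights, 1 with the block) and 0 to 1 (0). The causes were not tested.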
